A study of Equus caballus with 14 samples.

Results

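The 60 genes described here were lower in pregnant than in cyclic endometrium of the same mares, on day 13 after ovulation. They were the genes that ranked highest by their smallest difference over the mares. They were selected on measured values, with samples of the same replicate number taken as 1 mare, which the sample labels do not state. For each gene, CPM (counts per 1000000 counted reads) was calculated from the deposited counts, and d was the log2 ratio of pregnant to cyclic CPM, each with 0.5 CPM added, in each of the 4 mares that had both samples. Of 26740 genes, 11886 were over 4 CPM in at least 4 of the 9 endometrium samples, and the 60 of these with the lowest value of the maximum d over the 4 mares were taken. A further 4 genes were left out by the rule. The contrast between pregnant and cyclic mares 1 to 4 therefore describes the members and is not a finding about them. Pregnant replicate 5, whose mare had no cyclic library, took no part in the choice, and neither did the embryos.

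The study followed Warmblood mares in a switch-back design, in which a mare passed through 1 pregnant and 1 cyclic control cycle in random order. In both types of cycle hCG was given intravenously before ovulation. Cyclic mares were left unbred (n = 4 endometrium samples) and pregnant mares were inseminated with fresh semen of the same stallion (n = 5 endometrium samples and n = 5 embryos). The ages of the mares are not given in the sources used here. The biopsy was taken after a tampon had been placed in the uterus. In pregnant cycles the uterus was also flushed before the biopsy to recover the embryo, and whether it was flushed in cyclic cycles is not clearly stated. The cyclic sample of mare 5 was not sequenced because of its RNA quality.

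In the mare, as in other large domestic animals, the non-pregnant endometrium ends the life of the corpus luteum by releasing prostaglandin F. An embryo that is present in time prevents this release, so that progesterone stays high, which is called maternal recognition of pregnancy. The equine embryo is spherical, enclosed in a capsule and mobile at this stage, and it is not yet attached to the uterine wall. The endometrium that it meets is a mixture of luminal and glandular epithelium, stromal cells, vessels and immune cells. In a biopsy, fewer cells of one type and less RNA per cell cannot be told apart.

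The deposited counts are given per Ensembl identifier and are not paired with gene symbols, and the reference table of equine genes used here matched 0 of the 26740 identifiers. The members are therefore described by their levels and by their rank in the rule, and 4 of them by identifier. The supplementary material of the study pairs some identifiers with names, but these names were not used here. The known roles of the members, the marker genes of endometrial cell types and the gene lists written for this comparison were therefore not looked up, and the labelled tissue was not checked against its defining markers.

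Endometrium libraries held from 21753305 to 46945684 counts and embryo libraries from 23499774 to 239794605 counts. A level of 3 counts, taken as the limit of detection, corresponded to between 0.0125 and 0.138 CPM. Embryo 1 stood apart from the other embryos, since the 60 members took 0.00407% of its counts against 0.160% to 0.251% in embryos 2 to 5. This was not particular to the members. The median gene that passed the endometrium filter was at 16.6 CPM in the mean of embryos 2 to 5 and at 0.0449 CPM in embryo 1. The calls in embryos and their log2 changes in the fit of all samples are therefore also given without this library.

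The maximum d of a member, its smallest difference over the 4 mares, ranged from -1.72 to -0.50, with a median of -0.66. The mean of d over the 4 mares was -1.10 for the median member and between -3.09 and -0.61 for all members, where the median of all 11886 genes was 0.02. The mean d was -1 or lower in 41 of the 60 members, and d was -1 or lower in every mare in 9. In at least 1 mare, 16 members were more than 4-fold lower in the pregnant cycle. The limit of the rule did not fall at a gap in the values, as the maximum d was -0.50 for ranks 59 and 60 and -0.49 for ranks 61 and 62.

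**Figure D1:**
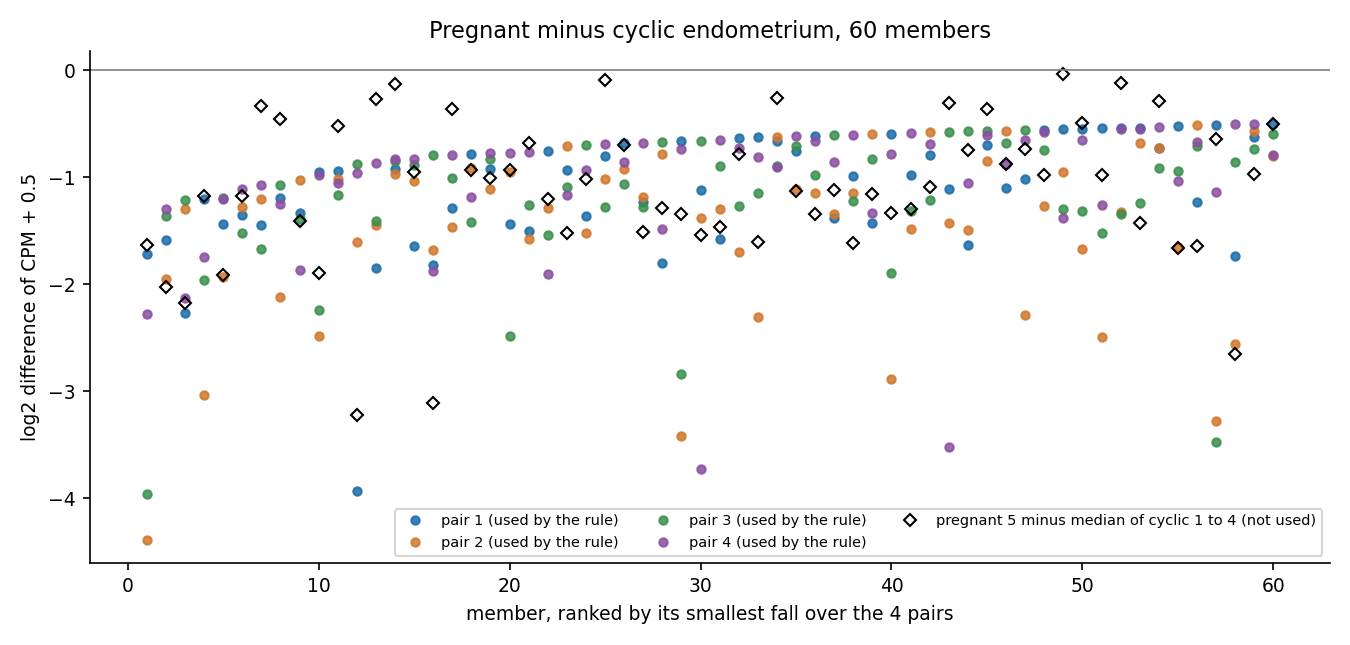
Log2 difference between pregnant and cyclic endometrium (vertical axis, CPM + 0.5) for the 60 members, ordered along the horizontal axis by their maximum d. Coloured points are the 4 pairs used in the choice and open diamonds are pregnant replicate 5 against the median of the 4 cyclic samples, and every diamond lies below 0.

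Rare transcripts were kept out of the members by the level filter of the rule. Their mean level in cyclic endometrium ranged from 5.02 to 749.5 CPM with a median of 36.0 CPM, close to the median of 36.5 CPM over all genes that passed the filter. In pregnant endometrium the median member was at 14.6 CPM. A mean of over 100 CPM in cyclic endometrium was seen for 11 members and a mean of under 10 CPM for 7. All 9 endometrium samples were over 4 CPM for 42 members, all 4 cyclic samples for 53, and every member was over 4 CPM in at least 1 pregnant sample. These counts by level are partly set by the filter and have no share of all genes beside them, so nothing is read from them.

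The members together took 0.583%, 0.569%, 0.424% and 0.459% of the counts in cyclic samples 1 to 4. They took 0.263%, 0.216%, 0.182% and 0.223% in pregnant samples 1 to 4, and 0.237% in pregnant sample 5. The lowest cyclic sample was thus above the highest pregnant sample, and pregnant sample 5, which was not used in the choice, lay within the range of the other pregnant samples. The 5 members with the highest level in cyclic endometrium made up 45.2% of the cyclic sum. Without these 5, the sum was between 2599 and 3116 CPM in the cyclic samples, between 974.8 and 1378 CPM in pregnant samples 1 to 4 and 1043 CPM in pregnant sample 5.

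The member with the lowest maximum d was ENSECAG00000008347. Its level was 54.7, 181, 103 and 12.5 CPM in cyclic samples 1 to 4 and 16.3, 8.20, 6.17, 2.19 and 25.2 CPM in pregnant samples 1 to 5. Every mare had a lower level in her pregnant cycle, but the groups overlapped, because the cyclic level of mare 4 was below the pregnant levels of mares 1 and 5. Cyclic endometrium had a mean of 88.0 ± 72.5 CPM (SD, n = 4) and pregnant endometrium one of 11.6 ± 9.15 CPM (SD, n = 5). The fitted log2 change, pregnant minus cyclic with mares blocked, was -3.23 (SE 0.49) and rests on mares 1 to 4. In pregnant sample 5 the level was 0.318 times the cyclic median and 3.501 times the median of pregnant samples 1 to 4. In embryos the gene had 18, 1, 77 and 0 counts in embryos 2 to 5 and 0 counts in embryo 1, at most 0.766 CPM.

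The member next in rank was ENSECAG00000012424. Its level was 139, 62.2, 48.4 and 94.2 CPM in cyclic samples 1 to 4 and 46.1, 15.7, 18.6, 38.2 and 18.9 CPM in pregnant samples 1 to 5. Here the groups did not overlap, and the highest pregnant sample lay just under the lowest cyclic sample. The d values of the 4 mares were -1.58, -1.95, -1.36 and -1.29. Cyclic endometrium had a mean of 86.0 ± 40.3 CPM (SD, n = 4) and pregnant endometrium one of 27.5 ± 13.7 CPM (SD, n = 5). The fitted log2 change, again resting on mares 1 to 4, was -1.59 (SE 0.21). Embryos 2 to 5 had 7.74, 5.71, 7.58 and 4.64 CPM of this transcript and embryo 1 had 0.0673 CPM.

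**Figure D2:**
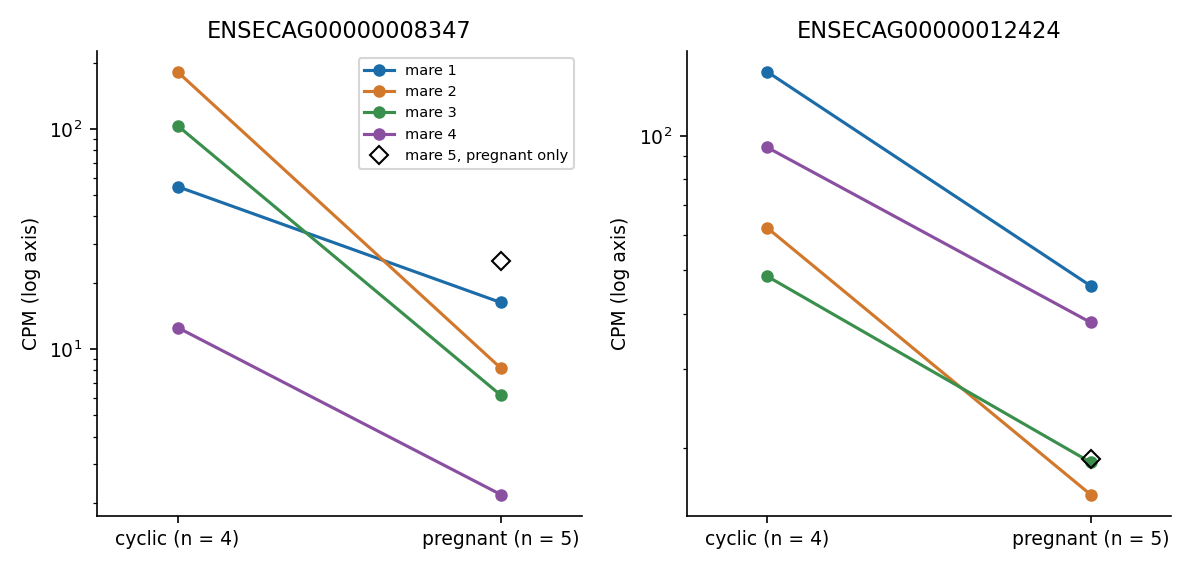
CPM (logarithmic vertical axis) of the 2 members of lowest maximum d in cyclic and pregnant endometrium, with a line for each of mares 1 to 4 and an open diamond for mare 5. All 8 lines go down, the groups overlap for ENSECAG00000008347 and they do not overlap for ENSECAG00000012424.

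The paired model of the study was fitted to all endometrium samples to place the members among all genes. Of the 60 members, 59 passed its filter and 42 were called lower in pregnancy by its likelihood ratio test in edgeR (adjusted p under 0.05 and more than 2-fold). Over all 11892 genes tested, 0.647% were called lower. Nothing is read from this difference, since the members were chosen by the same contrast. With the same mare block, edgeR's quasi-likelihood F test called 0 members and 0% of all genes lower. Its adjusted p for the members ranged from 0.0794 to 0.395. The unadjusted p in this test was under 0.05 for 59 of the 59 members and for 1354 of the 11892 genes tested. The choice favours a low p for the members, so nothing is read from that count either. Without the replicate block, 25 members were called, and with mare 2 or mare 3 left out, 26.

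To ask whether the members were low in a pregnant mare that had not been used to choose them, pregnant sample 5 was set against the 4 cyclic samples. All 60 members were below the median cyclic value in this sample, where 46.7% of all genes that passed the filter were. It was below the lowest cyclic value in 39 of 60 members, against 11.5% of all genes. The ratio of pregnant sample 5 to the cyclic median, with 0.5 CPM added to both, was 0.483 for the median member, with a range from 0.107 to 0.977, and 1.02 for the median gene. The cyclic side of this ratio had been used in the choice, so the counts are a description and carry no test, and they rest on 1 mare.

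The ratio to the cyclic median, here without an added constant, was 0.5 or lower in 35 members and higher in 25. A share of all genes is not given beside these counts, so nothing is read from them. The member with the highest ratio, of rank 49, had 39.6, 37.9, 71.8 and 57.7 CPM in the cyclic samples and 27.0, 19.4, 28.9, 21.9 and 47.5 CPM in the pregnant samples. Pregnant sample 5 was here above 2 of the 4 cyclic samples. The member with the lowest ratio, of rank 12, had 225, 69.4, 11.6 and 258 CPM in the cyclic samples and 14.3, 22.5, 6.13, 132 and 15.4 CPM in the pregnant samples. The ratio of its highest to its lowest cyclic sample was the largest of any member, and pregnant sample 5 was nevertheless above cyclic sample 3.

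Compared with the other pregnant samples, pregnant sample 5 was within their range for 31 members (51.7%, against 60.2% of all genes). It was above the highest of them for 16 members (26.7%, against 22.6%) and below the lowest for 13 (21.7%, against 17.2%). Its ratio to the median of pregnant samples 1 to 4 was 1.09 for the median member and 1.02 for the median gene. All 5 pregnant samples were below all 4 cyclic samples for 23 members (38.3%), against 1.30% of all genes, and with pregnant samples 1 to 4 alone, which fixed the choice, the number was 27.

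**Figure D3:**
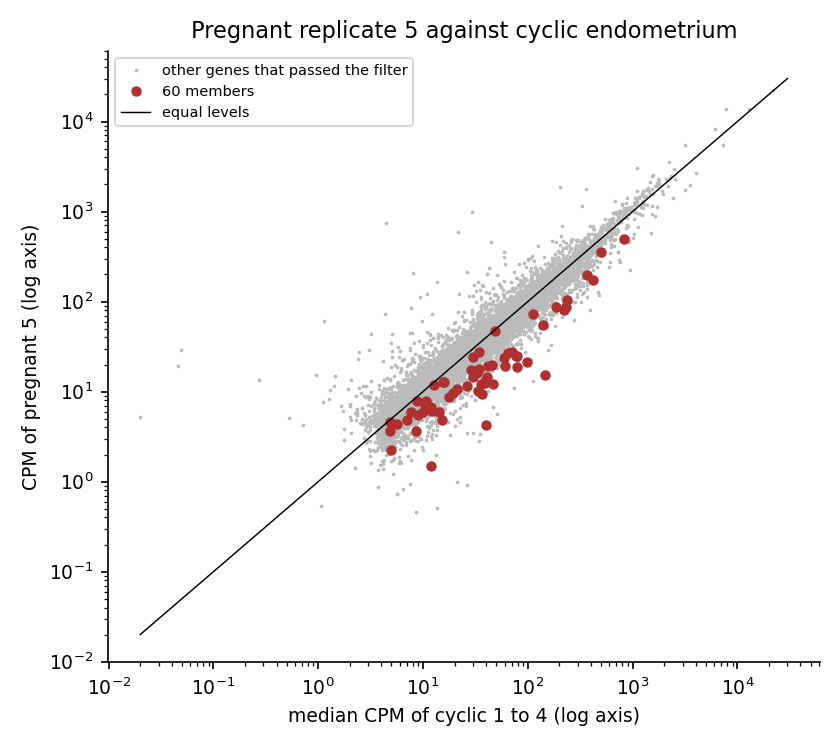
CPM of pregnant replicate 5 (vertical) against the median CPM of the 4 cyclic samples (horizontal), both on logarithmic axes, for the 60 members and all other genes that passed the filter. All 60 members lie below the line of equal levels, 39 of them below every cyclic sample.

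The levels of the members varied among mares, and the difference between the cycles did too. The SD of d over the 4 mares was 0.38 for the median member and 0.34 for the median gene. The highest cyclic sample was 2.76-fold above the lowest for the median member and 1.71-fold for the median gene. Among pregnant samples 1 to 5 these ratios were 2.17 for the members and 1.51 for all genes. The SD of log2 CPM for the median member was 0.64 in the 4 cyclic samples and 0.43 in pregnant samples 1 to 4, against 0.35 and 0.23 for the median gene. The mare with the highest cyclic level also had the highest pregnant level among mares 1 to 4 for 38 of the 60 members (63.3%), and for 41.2% of all genes. The same mare was lowest in both cycles for 36 members (against 35.5% of all genes). The levels of mares 1 to 4 in both cycles had been used in the choice. A lower level in every mare was required, which bears on how far the 2 cycles share their order of mares. The comparisons with all genes in this paragraph therefore describe the members and carry no test.

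The members fell into sets by the cyclic sample in which they were highest. Cyclic sample 1 was highest for 26 of the 60 members (against 30.2% of all genes), cyclic sample 2 for 15 (against 13.6%), cyclic sample 3 for 12 (against 24.7%) and cyclic sample 4 for 7 (against 31.5%). In the 26 members highest in cyclic sample 1, the median level was 57.7 CPM in that sample and from 28.0 to 34.1 CPM in the other cyclic samples. Pregnant sample 1 had a median of 25.8 CPM in these members, above the 12.7 to 18.4 CPM of pregnant samples 2 to 4 and the 13.96 CPM of pregnant sample 5. In the 15 members highest in cyclic sample 2, the medians were 40.1, 81.0, 56.3 and 30.7 CPM in cyclic samples 1 to 4, while pregnant samples 1 to 5 were all between 12.7 and 19.2 CPM. Of these 15 members, 5 were also highest in pregnant sample 2 among pregnant samples 1 to 4. The same mare was highest on both sides for 21 of the 26 members highest in cyclic sample 1. It was for 7 of the 12 highest in cyclic sample 3 and 5 of the 7 highest in cyclic sample 4. The cyclic side of these counts was fixed by how the sets were formed, and both sides had been used in the choice of the members. The differences among the counts were not tested, and no share of all genes is given for each set.

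The count of members with pregnant sample 5 below every cyclic sample differed among these sets. It was 24 of 26 for members highest in cyclic sample 1, 8 of 15 for those highest in cyclic sample 2, 4 of 12 for those highest in cyclic sample 3 and 3 of 7 for those highest in cyclic sample 4. Over all genes that passed the filter the share was 11.5%, and it was not computed separately by highest cyclic sample. These sets were formed after their values had been seen and the difference was not tested. In the 12 members highest in cyclic sample 3, the median of pregnant sample 5 was 9.18 CPM and the lowest cyclic median was 11.6 CPM, in cyclic sample 4.

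**Figure D4:**
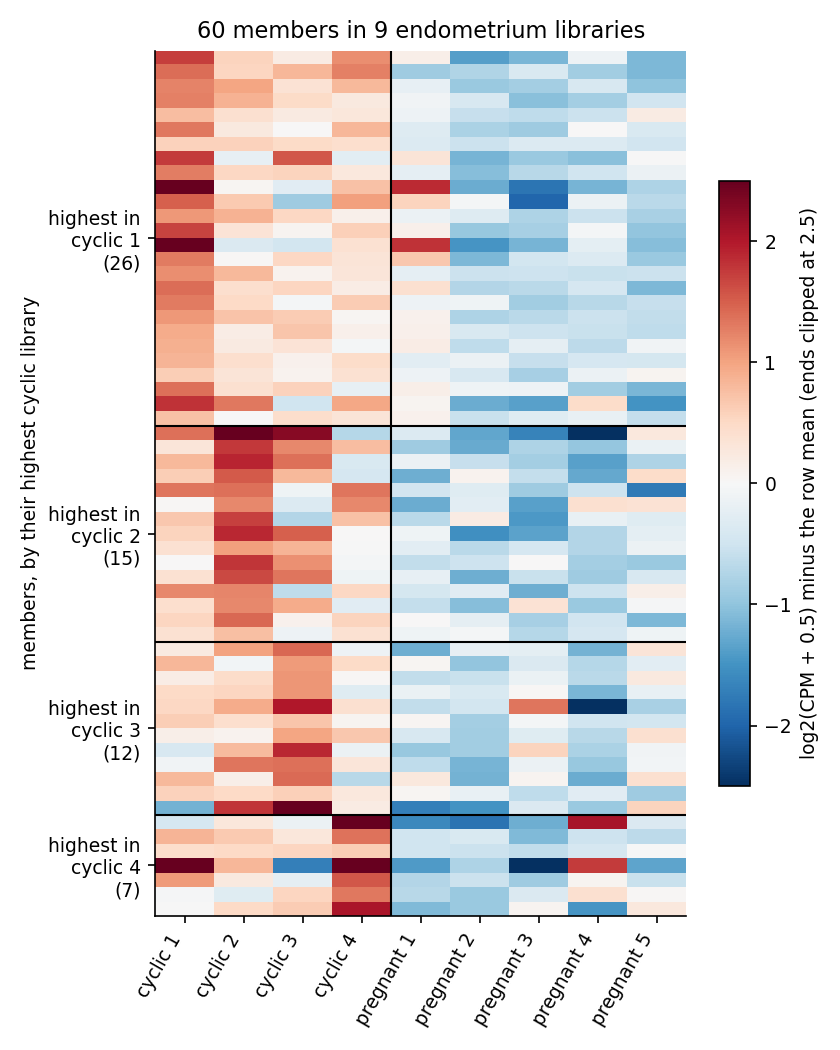
Log2(CPM + 0.5) of each member in the 9 endometrium samples, as the difference from its mean over them (colour scale, clipped at 2.5), with members grouped by the cyclic sample in which they were highest. Cyclic columns are mostly red and pregnant columns mostly blue. The mare of the highest cyclic sample was also highest among pregnant samples 1 to 4, which were used in the choice, for 21 of 26, 5 of 15, 7 of 12 and 5 of 7 members (cyclic samples 1 to 4).

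The size of the difference was even in some members and uneven in others. In the 10 most even members, the SD of d over the 4 mares was between 0.07 and 0.17 and the mean d between -1.31 and -0.61. In the 10 least even members, the SD was between 0.81 and 1.498 and the mean d between -3.09 and -1.41. The maximum d of every member was -0.498 or lower by the rule, so a larger SD brings a lower mean d. The difference in mean d is thus at least partly set by the choice. The even members were expressed at a lower level, with a median of 14.3 CPM in cyclic endometrium against 54.8 CPM. Pregnant sample 5 was below every cyclic sample in 7 of the 10 even and 5 of the 10 uneven members, against 11.5% of all genes. That share was not computed for even and uneven genes apart.

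The most even member, of rank 14, had 12.0, 9.10, 7.98 and 8.39 CPM in cyclic samples 1 to 4 and 6.14, 4.40, 4.21, 4.51 and 7.96 CPM in pregnant samples 1 to 5. Its d was between -0.97 and -0.83 in every mare, and pregnant sample 5 was level with the lowest cyclic sample. The least even member, of rank 57, had 21.1, 169, 429 and 56.4 CPM in cyclic samples 1 to 4 and 14.7, 17.0, 38.0, 25.4 and 72.0 CPM in pregnant samples 1 to 5. Mares 2 and 3 were far above the others in the cyclic state and their d was -3.27 and -3.48, against -0.51 in mare 1 and -1.14 in mare 4. Pregnant sample 5 was higher in this member than cyclic samples 1 and 4.

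Mare 1 had the highest d, for a member the smallest difference between the cycles, for 21 members (35.0%, against 23.9% of all genes). It was mare 4 for 19 members (31.7%, against 10.6%), mare 3 for 13 (21.7%, against 25.1%) and mare 2 for 7 (11.7%, against 40.4%). Mare 2 had the lowest d, the largest difference, for 26 members (43.3%, against 18.2%). These d values had been used in the choice, so the counts describe the members and carry no test. The median d of the members was -0.98, -1.29, -1.12 and -0.86 in mares 1 to 4, and the median d of all genes was -0.06, 0.12, 0.06 and -0.05. When the rule was applied without mare 1, 15 of the 60 members were still among the 60 genes chosen, and 31 to 43 were when another mare was left out.

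The most abundant members showed what the difference amounted to in transcripts of high level. The member with the highest cyclic mean, of rank 44, had 1026, 1039, 287 and 645 CPM in cyclic samples 1 to 4 and 332, 369, 193, 311 and 499 CPM in pregnant samples 1 to 5. The groups overlapped for this member, since cyclic sample 3 was lower than 4 of the 5 pregnant samples. The second, of rank 60, had 498, 645, 349 and 498 CPM in cyclic and 352, 371, 232, 287 and 353 CPM in pregnant endometrium, again with an overlap through cyclic sample 3. The third, of rank 41, had 557, 433, 411 and 273.5 CPM in cyclic and 282, 154, 165, 182 and 172 CPM in pregnant endometrium, and pregnant sample 1 alone reached the lowest cyclic sample. The fourth, of rank 46, was between 290.5 and 486 CPM in cyclic and between 182 and 243 CPM in pregnant endometrium, without overlap.

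To see on which side of the embryo-maternal interface the members were expressed, embryos were compared with the mean of the cyclic and pregnant endometrium groups in a fit of all 14 samples. This fit had no mare block, so samples of the same mare were treated as independent. The embryos had no part in the choice, but the members had to be expressed in endometrium, so that their share is also set against the genes that passed the endometrium filter. Of the 60 members, 54 passed the filter of this fit. At the same thresholds, the likelihood ratio test called 36 lower in embryos (66.7% of those tested), against 32.3% of all 11948 genes tested and 33.9% of the 11402 that also passed the endometrium filter. It called 7 members higher (12.96%), against 27.0% and 23.5%, and 11 were not called. The median log2 change was -4.09 for the 36 and 2.69 for the 7, and without embryo 1 it was -3.97 and 3.01 for the same genes. The quasi-likelihood test called the same numbers, 36 and 7.

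By its plain level in embryos, the median member was below the median gene. The mean of embryos 2 to 5 was 1.67 CPM for the median member and 16.6 CPM for the median gene. It was under 1 CPM in 27 members, from 1 to 10 CPM in 20 and 10 CPM or higher in 13. In 8 members no embryo had more than 3 counts, the limit of detection. No share of all genes is given for these counts by level, so nothing is read from them about the members. Embryos 2 to 5 were all below all 9 endometrium samples for 40 members (66.7%), where 54.5% of all genes were, and all above them for 4 members (6.67%), where 11.5% of all genes were. The summed level of the members was 1595, 2506, 2307 and 1725 CPM in embryos 2 to 5 and 40.7 CPM in embryo 1.

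The scale of this comparison depended on the libraries. The TMM factors were between 1.43 and 1.71 for endometrium, between 0.690 and 0.927 for embryos 2 to 5 and 0.0340 for embryo 1. With library size in place of these factors, the log2 change of the median gene was shifted by -1.11, all 36 members called lower kept that direction, and 5 of the 7 called higher were still positive, 4 of them past the thresholds. Without embryo 1, 37 members were called lower and 8 higher, among them all 36 and 6 of the 7 that were called with all embryos.

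The member with the largest rise in embryos was ENSECAG00000024967. It had 338, 688, 656 and 394 CPM in embryos 2 to 5 and 0.381 CPM in embryo 1. In endometrium it had 83.5, 47.0, 33.7 and 116 CPM in cyclic samples 1 to 4 and 23.7, 27.1, 21.0, 41.1 and 26.5 CPM in pregnant samples 1 to 5. Embryos 2 to 5 were all above all endometrium samples, and embryo 1 was below them. The log2 change, embryo minus endometrium, was 4.19 (SE 0.54, adjusted p = 2.23e-13, edgeR likelihood ratio test), and without embryo 1 it was 4.52 (adjusted p = 3.74e-61 in the same test). With the replicate block and all embryos it was 4.06 (adjusted p = 1.04e-08 in the likelihood ratio test). The quasi-likelihood test without the block gave an adjusted p of 6.66e-06.

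The next was ENSECAG00000000701, which was rank 4 of the members and the one with the highest mean in embryos. It had 832, 1135, 984 and 897 CPM in embryos 2 to 5 and 12.9 CPM in embryo 1. In cyclic samples 1 to 4 it had 145, 402, 268.5 and 201 CPM and in pregnant samples 1 to 5 it had 62.8, 48.7, 68.9, 59.8 and 104 CPM, so that all 5 pregnant samples were below all cyclic samples. The log2 change, embryo minus endometrium, was 3.60 (SE 0.33, adjusted p = 2.13e-26, edgeR likelihood ratio test) and 3.82 without embryo 1. With the replicate block it was 3.51, and the quasi-likelihood test without the block gave an adjusted p of 6.39e-08. With embryo 1 set aside, the order of the levels was therefore pregnant endometrium, cyclic endometrium and embryo, without overlap between neighbours.

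Of the other 5 members called higher in embryos, 2 had a log2 change above 2, at 2.75 (SE 0.54) and 2.69 (SE 0.53), which were 3.08 and 3.01 without embryo 1. They stood at 107 to 216 CPM and at 15.9 to 31.6 CPM in embryos 2 to 5, against cyclic means of 52.4 ± 29.8 and 10.2 ± 3.53 CPM (SD, n = 4). The remaining 3 had log2 changes of 1.70, 1.67 and 1.48, which were 1.10, 0.89 and 1.77 without embryo 1, so that the second of them was no longer called. Their CPM in embryos 2 to 5 overlapped with that in cyclic endometrium. None of these 3 was called with library size, and 2 of the 7 members called higher then had a negative change. Against pregnant endometrium alone, the comparison made in the study, 42 members passed the filter, of which 20 were called lower in embryos (28.6% of all genes tested were) and 8 higher (27.1% of all genes). The pregnant samples had made the members low, which favours a higher embryo in that comparison. Against cyclic endometrium alone, where the choice favours a lower embryo, 38 of 54 were called lower (31.8% of all genes) and 4 higher (25.4% of all genes). The comparisons with one endometrium group alone were not repeated without embryo 1.

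**Figure D5:**
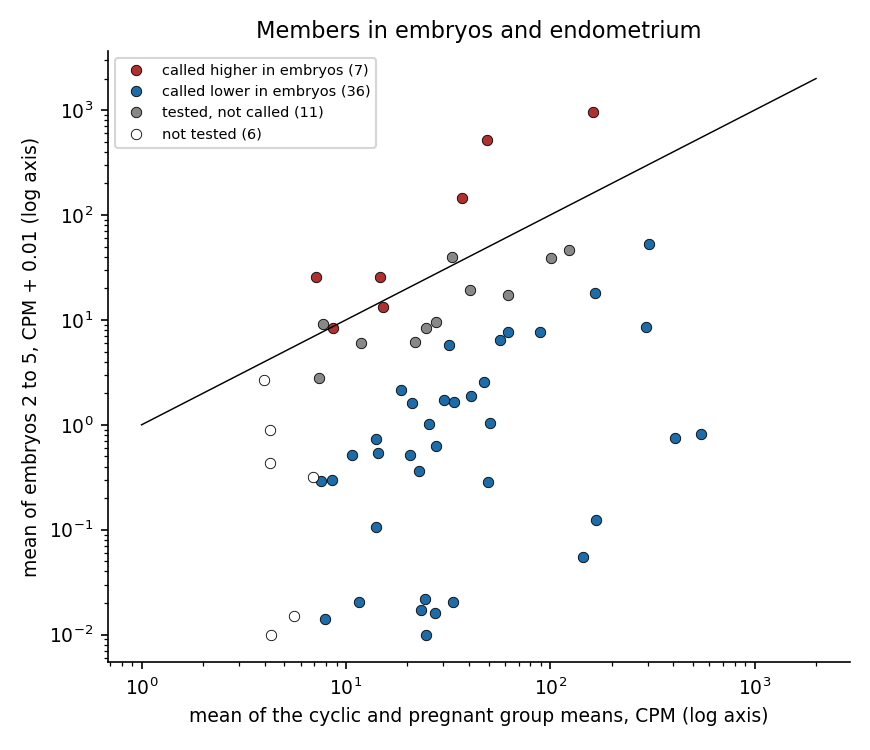
Mean CPM of embryos 2 to 5 (vertical, 0.01 CPM added) against the mean of the cyclic and pregnant group means (horizontal), both on logarithmic axes, for the 60 members, coloured by the call in the fit of all 14 samples. Of the members, 36 were called lower in embryos and lie below the line of equal levels, 7 were called higher, 11 were not called and 6 were not tested.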

How the data were processed

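The authors trimmed adapters from single reads with cutadapt 1.11, mapped them to EquCab 2.80 with CLC Genomics Workbench 9.0.1 and counted reads on Ensembl genes. The deposited values are raw counts for 26740 identifiers per sample. The library kit preserved strand, but whether counting used it and the treatment of multi-mapping reads are not given in the sources used here, so overlapping genes and near-identical copies are uncertain. The deposited tables and the reference table gave no symbols for the identifiers, and names from the study's supplementary material were not used. The members and lists were chosen with earlier results of these data known.

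CPM was calculated on library totals. The test, filter (over 4 CPM in at least 4 fitted samples) and thresholds of the study were used in edgeR 4.0.16 under R 4.3.3, with TMM factors recomputed after the filter and Benjamini-Hochberg adjustment over all genes tested. Mares were blocked in the endometrium comparison, with same-numbered samples taken as coming from 1 animal. The labels give replicate numbers only and do not name the mare. Deviations from the group means correlated by 0.0847 to 0.573 (mean 0.337) between same-numbered samples. Between differently numbered samples they correlated by -0.508 to 0.232 (mean -0.113), with cyclic sample 1 closest to pregnant sample 2. Standard errors came from the fitted information matrix. DESeq2 1.42.0 was an alternative. The fits were tested on simulated data. No 2 of the 91 pairs of libraries agreed within sampling noise (at least 60.6 chi-square per degree of freedom). The limit of 3 counts covers counting error only. The rule for named genes gave, in the absence of symbols, the 2 members of lowest maximum d, and the 2 members with the largest rise in embryos were added after their values were seen.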

Additional observations from a re-analysis of the deposited data

Results flagged for a closer look

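In each of 18 groups of values (the summed and median level of the members and the levels of the 4 named members in each group of samples), the gap between the most extreme sample and the next one was compared with the whole range of the group. A sample far from the others was found in 2 groups, where chance would give 0.9. Both concerned embryo 1. The median member was at 0 CPM in embryo 1, against 1.52 CPM in the next lowest embryo. Low levels there were not particular to the members, since the median of all genes that passed the endometrium filter was 0.0449 CPM in embryo 1. ENSECAG00000000701 was at 12.9 CPM in embryo 1, against 832 CPM in the next lowest embryo. The cause was not tested.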

How the results depend on the processing

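For members called lower in pregnancy (42 of 59 tested), 9 of 13 alternatives stayed within 1.5 times. With the replicate block kept, quasi-likelihood testing in edgeR called 0. The 59 members at an unadjusted p under 0.05 in it are favoured by the choice. The fit with no replicate block called 25. Leaving out 1 of mares 1 to 4 gave 26 to 38, and leaving out mare 5, which had no cyclic sample, gave 41. For members called higher in embryos (7), 21 of 23 alternatives stayed within 1.5 times, and 4 were called with library size and 4 against cyclic endometrium alone. For members called lower in embryos (36), 22 of 23 did, and 20 were called against pregnant endometrium alone, with 42 members tested. Leaving out a library gave 6 to 8 higher and 33 to 37 lower, and the replicate block left both at 7 and 36. The counts for pregnant sample 5 were 39 to 44 below the lowest and 52 to 58 below the median cyclic value with a cyclic sample left out. With TMM-scaled CPM they were 39 and 60, against 15.1% and 50.6% of all genes. Of the 60 members, 58 were kept with a pseudocount of 0.1 CPM, 54 with 2 CPM, 47 with TMM-scaled CPM and 15 to 43 with a mare left out, the lowest without mare 1. The 4 named members kept their direction in all alternatives, and the 2 of lowest maximum d failed the threshold in the quasi-likelihood test of edgeR only (adjusted p = 0.209 and 0.0978). The causes were not tested. Depth limits levels under 0.138 CPM.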
